A study of Homo sapiens with 12 samples.

Results

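Of 10 genes that mark the epithelial state, A549 cells in these libraries expressed SPINT2 and ELF3 strongly and EPCAM weakly, and the other 7 lay at or near 0. The 10 genes are EPCAM, SPINT1, SPINT2, ST14, ESRP1, ESRP2, GRHL2, ELF3, RAB25 and OVOL1. They were chosen by symbol for their roles as epithelial surface proteins, protease inhibitors, splicing regulators and transcription factors, among 57879 Ensembl gene identifiers, and all 10 have a row. A549 is a human lung adenocarcinoma line. The study made 4 stable lines with lentivirus: TIF1γ (overexpressing TIF1γ, the product of TRIM33; 2 libraries, replicates 2 and 3), Vector (its empty-vector control; 3 libraries), sh-TAF15 (a short hairpin RNA against TAF15; 2 libraries, replicates 2 and 3) and sh-NC (its control construct; 1 library, replicate 2). Each group has 3 labelled biological replicates, of which 4 in all are not analysed here. The labels do not say how many hairpins or clones a line holds.

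SPINT1 and SPINT2 encode the Kunitz-type inhibitors HAI-1 and HAI-2, which hold in check matriptase, a serine protease on the surface of epithelial cells encoded by ST14. Matriptase activates other proteases and growth factors and cleaves EpCAM, the adhesion molecule encoded by EPCAM. GRHL2, ELF3 and OVOL1 are transcription factors of epithelia, ESRP1 and ESRP2 set the epithelial pattern of alternative splicing, and RAB25 is a small GTPase of the recycling endosome. In epithelial-mesenchymal transition (EMT), repressors such as ZEB1 and SNAI2 bind E-box sequences in the promoters of epithelial genes.

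Promoter windows were at hand for ELF3, RAB25 and SPINT1, from RefSeq on GRCh38.p14, each with 250 bases before and 50 after the start. Those of ELF3, which was abundant, and of RAB25, which was listed at 0 throughout, are shown to set an abundant gene beside one without signal. Both lie on the plus strand of chromosome 1, at chr1:202010337-202010636 for ELF3 and chr1:156060910-156061209 for RAB25. Capitals mark matches to an E-box, searched as CAGGTG or its reverse complement CACCTG, to an ETS motif, searched as GGAAGT or its reverse complement ACTTCC, and to a TATA motif, searched as TATAAA or its reverse complement TTTATA.
ELF3: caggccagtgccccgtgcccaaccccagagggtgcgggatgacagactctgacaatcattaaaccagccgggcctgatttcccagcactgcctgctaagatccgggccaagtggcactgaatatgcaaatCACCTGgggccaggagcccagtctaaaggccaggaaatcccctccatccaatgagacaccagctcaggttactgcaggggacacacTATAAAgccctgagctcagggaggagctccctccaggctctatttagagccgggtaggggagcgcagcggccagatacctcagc
RAB25: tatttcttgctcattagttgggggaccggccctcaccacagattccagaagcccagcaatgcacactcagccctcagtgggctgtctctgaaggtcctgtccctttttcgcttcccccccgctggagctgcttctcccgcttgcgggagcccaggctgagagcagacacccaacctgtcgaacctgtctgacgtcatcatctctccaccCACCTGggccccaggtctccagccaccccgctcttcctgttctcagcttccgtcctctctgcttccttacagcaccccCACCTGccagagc
The ELF3 window holds 1 E-box, 120 bases before the start, and 1 TATAAA, 34 bases before it. The RAB25 window holds 2 E-boxes, 41 bases before the start and at base 38 of the transcript, and no TATAAA. Neither holds GGAAGT, and no 2 matches overlap. Of 35116 RefSeq windows of the same length, 20.6% hold the E-box, 22.8% GGAAGT and 11.5% TATAAA. The GC content was 59.0% in ELF3 and 60.7% in RAB25, next to a median of 58.7% over all windows. A match describes the letters in the window and not a bound site.

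The labels do not name the unit, and the values, which are not whole and sum to a different total in each library, were taken to be FPKM, which divides fragments by gene length and by sequencing depth, so that genes can be compared per length. Their sum per library ran from 881293 to 1356634. Of genes under 0.05 FPKM in a library and in Vector replicate 1, 74.4% to 81.6% stood at a ratio of small whole numbers within 5% once the most common ratio was divided out. That most common ratio put the depth of the libraries at 0.789 to 1.04 times that of Vector replicate 1, while the total in reads is unknown. TRIM33 was at 8.03 and 6.14 FPKM in TIF1γ, against 2.23, 2.10 and 1.27 FPKM in Vector, higher in both libraries of the overexpressing line (log2 fold change 1.46, limma adjusted p = 0.13). The TAF15 level is not analysed here, so the knockdown was not checked. Of 10 markers of A549 cells, all reached 1 FPKM in some library, but KRT8 and KRT18 were listed at 0 in both TIF1γ libraries beside 4561 FPKM or more in Vector. An exact 0 may thus be a failed estimate, and for the genes below it is given as listed. CDKN2A, which is deleted in A549, was listed at 0 in 6 of 8 libraries and was highest, at 1.895 FPKM, in sh-TAF15 replicate 3.

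**Figure D1:**
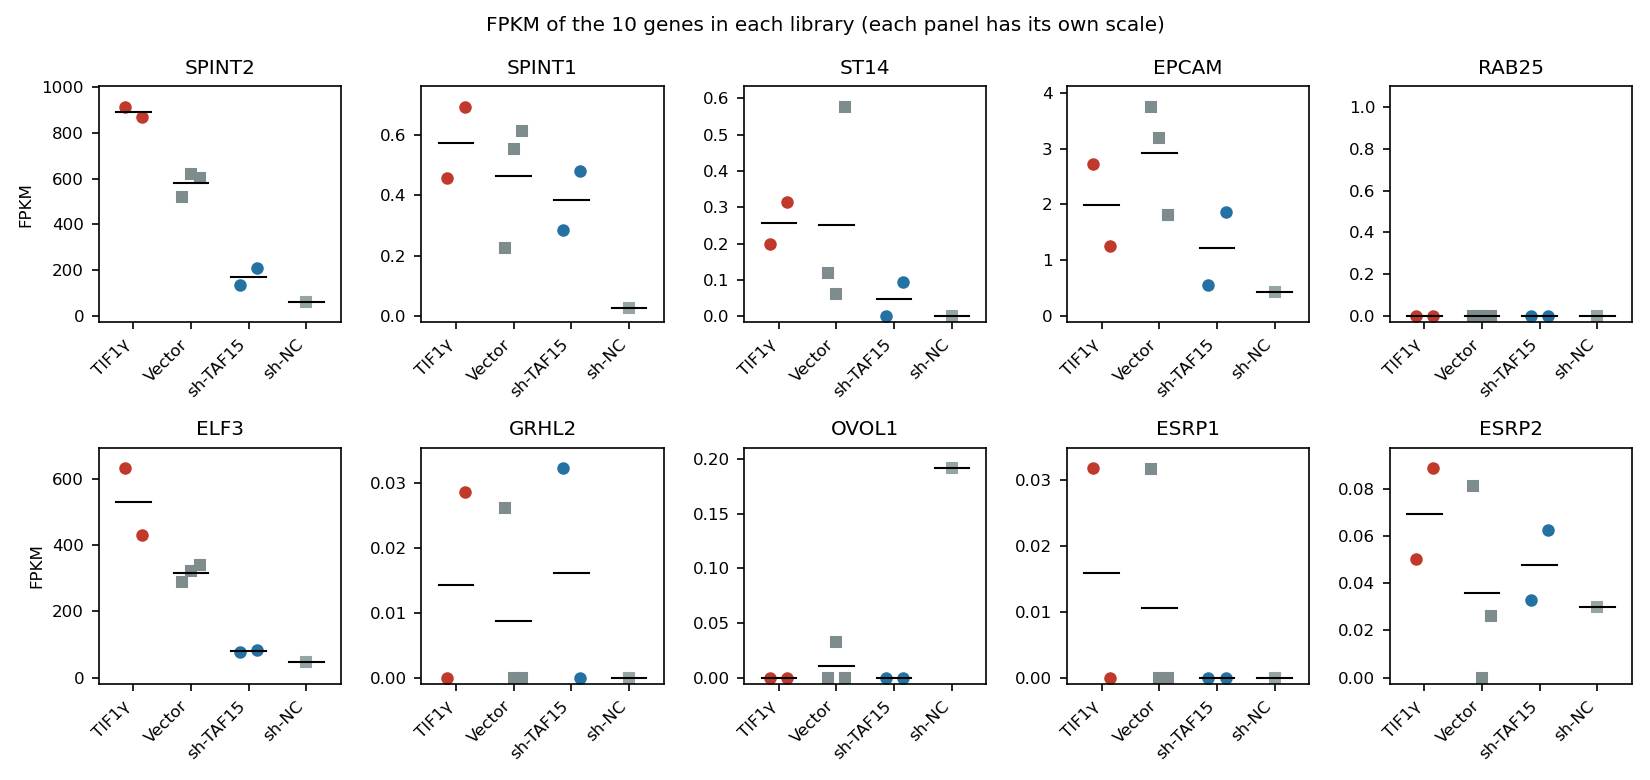
FPKM (vertical axis, a linear scale of its own in each panel) of the 10 genes in each of 8 libraries, grouped as TIF1γ, Vector, sh-TAF15 and sh-NC; each point is a library and each bar the group mean. SPINT2 reaches 914 FPKM and ELF3 632 FPKM, both are lowest in sh-NC, EPCAM stays under 4 FPKM, and RAB25 is listed at 0 in every library.

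Of matriptase and its 2 inhibitors, only the inhibitor gene SPINT2 (ENSG00000167642) reached 1 FPKM in any library. SPINT2 stood at 914 and 870 FPKM in TIF1γ, at 519, 621 and 605 FPKM in Vector, at 136 and 209 FPKM in sh-TAF15, and at 63.4 FPKM in sh-NC. The 4 groups did not overlap. Of all genes tested below, 20.8% had every TIF1γ library above Vector, 15.7% every sh-TAF15 library below Vector and 39.3% every sh-TAF15 library above sh-NC. In TIF1γ and Vector SPINT2 lay above 98.8% to 99.2% of 19254 protein-coding genes. SPINT1, the other inhibitor, was at 0.457 and 0.693 FPKM in TIF1γ, at 0.224, 0.554 and 0.615 FPKM in Vector, at 0.286 and 0.480 FPKM in sh-TAF15, and at 0.0263 FPKM in sh-NC. Its level per length was thus 435 to 2406 times below that of SPINT2 within the same library, and apart from the low sh-NC library the groups overlapped. The protease gene ST14 was at 0.200 and 0.315 FPKM in TIF1γ, at 0.119, 0.0605 and 0.577 FPKM in Vector, at 0 and 0.0948 FPKM in sh-TAF15, and listed at 0 in sh-NC. The ratio of both inhibitors to ST14 was 4573 and 2766 in TIF1γ, against 4355, 10274 and 1050 in Vector, and did not separate them (two-sided exact permutation test, p = 1.0, where 2 against 3 libraries can reach no less than 0.1). In sh-TAF15 replicate 2 and sh-NC it could not be formed, since ST14 was listed at 0, and in sh-TAF15 replicate 3 it was 2210.

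EPCAM (ENSG00000119888), an abundant surface protein of most carcinomas, was weak in every line. It was at 2.72 and 1.25 FPKM in TIF1γ, at 3.75, 3.20 and 1.80 FPKM in Vector, at 0.555 and 1.87 FPKM in sh-TAF15, and at 0.436 FPKM in sh-NC. TIF1γ overlapped Vector, sh-TAF15 replicate 3 lay just above Vector replicate 3, and sh-NC was below every other library. PRSS8, which encodes prostasin, a protease that works with matriptase, did not exceed 0.233 FPKM.

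Of the 3 transcription factors, only ELF3 (ENSG00000163435), an ETS factor of epithelia, was expressed at 1 FPKM or more in any library. It stood at 632 and 430 FPKM in TIF1γ, at 287, 321 and 339 FPKM in Vector, at 77.1 and 82.6 FPKM in sh-TAF15, and at 48.1 FPKM in sh-NC. The groups were in the same order as for SPINT2 and again did not overlap. The share of all genes with the 4 groups apart in this order was not computed. GRHL2, the Grainyhead-like factor that sustains junction genes, was above 0 in TIF1γ replicate 3, Vector replicate 1 and sh-TAF15 replicate 2, at 0.0285, 0.0261 and 0.0322 FPKM. After division by each library's step these values were 1.00, 1.00 and 1.01 relative to Vector replicate 1, as the same number of fragments would give. By the same division, 5 of 7 ESRP2 values above 0 lay within 0.05 of a whole multiple of the lowest. For ESRP1 and OVOL1 it was 1 of 2, the lowest itself, so the reading in fragments is uncertain. OVOL1, a zinc finger repressor of EMT, was at 0.192 FPKM in sh-NC and 0.0329 FPKM in Vector replicate 2, and listed at 0 in the other 6 libraries. Several relatives were weak as well. GRHL1 stayed at or under 0.753 FPKM, GRHL3 at or under 1.12, OVOL2 at or under 0.421, EHF at or under 3.55, and ELF5 was listed at 0 in all libraries. Others were not: the ETS factor SPDEF reached 31.1 FPKM in TIF1γ, ELF4 17.4 FPKM in sh-TAF15, the Grainyhead relative UBP1 36.2 FPKM in sh-NC and FOXA2 44.7 FPKM in TIF1γ.

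Both epithelial splicing regulators were nearly silent. ESRP1 was above 0 in TIF1γ replicate 2 and Vector replicate 1 only, at 0.0318 and 0.0317 FPKM. ESRP2 was at 0.0505 and 0.0889 FPKM in TIF1γ, at 0.0814, 0 and 0.0262 FPKM in Vector, at 0.0329 and 0.0628 FPKM in sh-TAF15, and at 0.0301 FPKM in sh-NC. Its highest values were 3 times the lowest non-zero value per step, but TIF1γ replicate 2 and sh-TAF15 replicate 3 stood at 1.53 and 1.83. A few fragments may have set these values, and the groups could not be ordered. RBM47, an RNA-binding protein that also acts on splicing in epithelia, was at 8.97 and 10.97 FPKM in TIF1γ, at 14.6, 12.3 and 13.2 FPKM in Vector, at 24.5 and 19.97 FPKM in sh-TAF15, and at 15.3 FPKM in sh-NC. RAB25 was listed at 0 in all 8 libraries, whereas RAB11A, the ubiquitous member of the same family, ran from 204 to 317 FPKM.

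The lines were tested with limma on log2(FPKM + 1) over 13907 genes that reached 1 FPKM in at least 2 libraries, and a call is a Benjamini-Hochberg adjusted p under 0.05 over all of them. SPINT2, ELF3 and EPCAM passed that filter and the other 7 did not. Fold changes below are on the log2(FPKM + 1) scale, which understates those of weak genes such as EPCAM. The fit takes the spread of the other groups for sh-NC, which has 1 library. TIF1γ, sh-NC and sh-TAF15 against Vector share the Vector libraries, and both comparisons with sh-NC share that library, so their directions are not independent. In RNA from whole cultures, fewer cells that express a gene and less RNA per cell cannot be told apart.

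The first comparison asks whether TIF1γ overexpression changed these genes. SPINT2 averaged 892 ± 30.8 FPKM in TIF1γ (SD, n = 2) and 582 ± 54.8 FPKM in Vector (SD, n = 3). ELF3 averaged 531 ± 143 FPKM in TIF1γ (SD, n = 2) and 316 ± 26.5 FPKM in Vector (SD, n = 3). For these 2 genes TIF1γ and Vector did not overlap, with TIF1γ higher, which was so for 20.8% of all genes tested. By limma the log2 fold change was 0.54 for SPINT2 (SE 0.25, 95% confidence interval −0.0024 to 1.08, adjusted p = 0.252) and 0.64 for ELF3 (SE 0.24, interval 0.13 to 1.15, adjusted p = 0.208). For EPCAM, with 1.99 ± 1.04 FPKM in TIF1γ (SD, n = 2) and 2.92 ± 1.00 FPKM in Vector (SD, n = 3), it was −0.47 (SE 0.33, interval −1.19 to 0.25, adjusted p = 0.409). Thus 0 of the 3 were called by limma, where 0.0216% of all genes were, and 1 (ELF3) had an unadjusted p under 0.05, as did 19.9% of all genes. Fold changes in this comparison were higher at higher transcript GC content (Spearman rho 0.788 over 11720 protein-coding genes, which are not independent), and genes within 1 point of the GC percent of SPINT2 or ELF3 had a median log2 fold change of 0.32 or 0.30. With the trend on GC and length removed, SPINT2 had a log2 fold change of 0.19 (SE 0.18, limma adjusted p = 0.789) and ELF3 of 0.43 (SE 0.15, interval 0.07 to 0.79, limma adjusted p = 0.58).

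The second comparison asks whether TAF15 knockdown changed them. SPINT2 averaged 173 ± 51.3 FPKM in sh-TAF15 (SD, n = 2), against 63.4 FPKM in the sh-NC library, a ratio of 2.72. ELF3 averaged 79.9 ± 3.87 FPKM in sh-TAF15 (SD, n = 2), against 48.1 FPKM in sh-NC, and EPCAM averaged 1.21 ± 0.930 FPKM in sh-TAF15 (SD, n = 2), against 0.436 FPKM in sh-NC. Both sh-TAF15 libraries lay above sh-NC for all 3 genes tested, as they did for 39.3% of all genes tested. Fold changes were higher at higher transcript GC content here too (Spearman rho 0.434 over the same protein-coding genes). With the trend on GC and length removed, the log2 fold change was 1.11 for SPINT2 and 0.68 for ELF3. The values that follow keep the trend. By limma the log2 fold change was 1.33 for SPINT2 (SE 0.34, interval 0.61 to 2.06, adjusted p = 0.282), 0.65 for ELF3 (SE 0.32, interval −0.03 to 1.34, adjusted p = 0.889) and 0.51 for EPCAM (SE 0.45, interval −0.46 to 1.47, adjusted p = 0.958). Of the 3 genes 0 were called, where 0.0575% of all genes were, and 1 (SPINT2) had an unadjusted p under 0.05, as did 5.62% of all genes. With only the 3 sh libraries in the fit, SPINT2 was called (log2 fold change 1.37, limma adjusted p = 0.0171), but the spread then rests on the 2 sh-TAF15 libraries with 1 residual degree of freedom, and calls over all genes numbered 229 in place of 8.

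The effects of TIF1γ overexpression and TAF15 knockdown did not differ past the threshold for any of the 3 genes. The TIF1γ effect minus the sh-TAF15 effect was −0.80 for SPINT2 (SE 0.42, interval −1.70 to 0.11), −0.01 for ELF3 (SE 0.40, interval −0.87 to 0.84) and −0.98 for EPCAM (SE 0.56, interval −2.18 to 0.22). By limma the adjusted p was 1.0 for each, while 0.0431% of all genes were called. Of the 3 genes 0 had an unadjusted p under 0.05, where 3.6% of all genes did. The intervals leave room for a difference of more than 1 log2 unit in SPINT2 and EPCAM.

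Among the comparisons fitted, these genes differed most between the control lines. SPINT2 was 9.18 times lower in the sh-NC library, at 63.4 FPKM, than the Vector mean of 582 ± 54.8 FPKM (SD, n = 3), with a log2 fold change of −3.35 (SE 0.32, limma adjusted p = 1.78e-05). ELF3 was 6.56 times lower, at 48.1 FPKM in sh-NC against 316 ± 26.5 FPKM in Vector (SD, n = 3), with a log2 fold change of −2.86 (SE 0.30, limma adjusted p = 4.99e-05). EPCAM was 6.69 times lower, at 0.436 FPKM in sh-NC against 2.92 ± 1.00 FPKM in Vector (SD, n = 3), with −1.51 (SE 0.42, limma adjusted p = 0.0355). All 3 tested genes were called lower, where 7.21% of all genes tested were lower and 3.78% higher, and all 3 lay below every Vector library, as did 29.7% of all genes. Of the sh libraries, only sh-TAF15 replicate 3 had EPCAM at 1 FPKM or more, at 1.87 FPKM. EPCAM thus needed the TIF1γ and Vector libraries to pass the filter, which favoured a lower direction for it. Without scaling the balance over all genes turned, with 5.62% called lower and 6.46% higher, and the 3 genes were still called lower. The EPCAM call was lost without Vector replicate 1 (limma adjusted p = 0.0669), with a replicate block (0.0666), with the GC and length trend removed (0.0512), with both of these (0.168), with libraries scaled to a common sum (0.0567) and with no filter (0.128). Fold changes here were lower at higher transcript GC content (Spearman rho −0.483 over the same genes), and with the trend removed SPINT2 had a log2 fold change of −2.94 (limma adjusted p = 0.00029).

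The sh-TAF15 libraries lay on the same side of Vector, a comparison added after the values were seen because sh-NC has 1 library. SPINT2 had a log2 fold change of −2.01 (SE 0.25, limma adjusted p = 0.000129) and ELF3 of −2.20 (SE 0.24, limma adjusted p = 3.78e-05). EPCAM had −1.001 (SE 0.33, limma adjusted p = 0.0701). Here 2 of the 3 genes were called lower, where 7.18% of all genes tested were, and these 2 lay below every Vector library, as did 15.7% of all genes. SPINT2 remained called in all alternatives for both comparisons with Vector, with a log2 fold change from −3.43 to −2.86 for sh-NC and from −2.28 to −1.74 for sh-TAF15, and so did ELF3, from −2.96 to −2.66 and from −2.28 to −1.97.

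**Figure D2:**
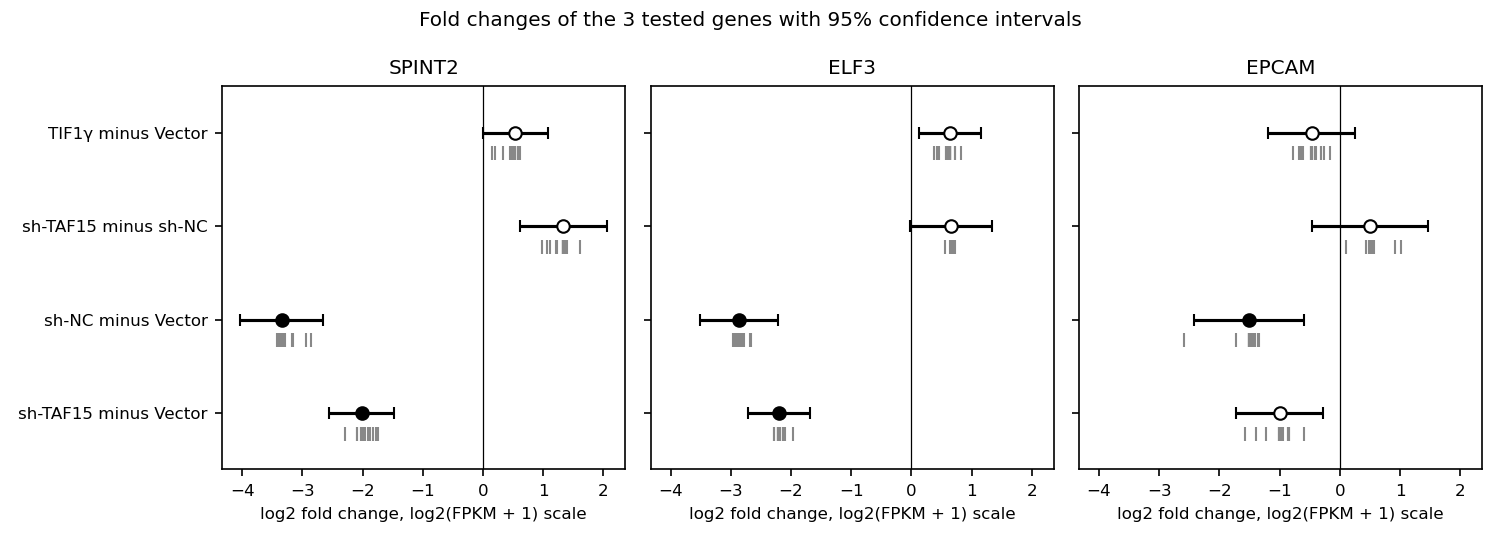
Log2 fold changes on the log2(FPKM + 1) scale (horizontal axis) of SPINT2, ELF3 and EPCAM in 4 comparisons (rows); circles are limma estimates with 95% confidence intervals, filled where the adjusted p is under 0.05, and grey ticks are the alternative settings. SPINT2 and ELF3 are called lower in sh-NC and in sh-TAF15 than in Vector, and none of the 3 genes is called in TIF1γ minus Vector or sh-TAF15 minus sh-NC.

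The sh lines differ from Vector in the construct they carry, the labels give no batch, and construct, culture and handling cannot be told apart. The summed level of the 10 A549 markers, EPCAM among them, was 7966 and 9764 FPKM in TIF1γ, where KRT8 and KRT18 are listed at 0, 7185 and 8597 FPKM in sh-TAF15 and 5657 FPKM in sh-NC, against 17085 to 19208 FPKM in Vector. KRT8 and KRT18 averaged 5363 and 5125 FPKM in Vector and so make up much of the sum there. Since their 0 in TIF1γ may be a failed estimate, the sum in TIF1γ cannot be set beside that in Vector. Among these markers, GPX2 had 1423 and 1137 FPKM in TIF1γ, 1.89 and 2.01 FPKM in sh-TAF15 and 0.0758 FPKM in sh-NC, against 781 ± 197 FPKM in Vector (SD, n = 3), whereas ALDH1A1 had 782 and 1354 FPKM in TIF1γ, 1847 and 1677 FPKM in sh-TAF15 and 1165 FPKM in sh-NC, against 1129 to 1307 FPKM in Vector. The summed level of 8 fibroblast markers was 2.61 and 2.81 FPKM in TIF1γ, 6.24 and 7.69 FPKM in sh-TAF15 and 4.39 FPKM in sh-NC, against 1.11 to 3.35 FPKM in Vector, and DCN was listed at 0 throughout. The summed level of 7 leukocyte markers, in which CD14 and CD68 lead, was 62.6 and 87.6 FPKM in TIF1γ, 36.0 and 36.1 FPKM in sh-TAF15 and 29.2 FPKM in sh-NC, against 37.3 to 58.4 FPKM in Vector, with PTPRC at or under 0.0227 FPKM. The 5 endothelial markers with a row summed to 0.415 FPKM at most, and the 7 alveolar type 2 markers to between 3.72 and 9.90 FPKM over all libraries, with SFTPA1 listed at 0. The part of these markers in the result was not tested.

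SPINT2 and ELF3 changed alike across the libraries, though each was nearer to other genes, given below. The root mean square difference between the gene-centred log2 levels of SPINT2 and ELF3 over all 8 libraries was 0.27. Each of the 2 differed from EPCAM by 0.99. The log2(FPKM + 1) scale shrinks the changes of EPCAM. In FPKM it was 6.69 times lower in sh-NC than in Vector, next to 6.56 times for ELF3. How many genes lie as near to SPINT2 or ELF3 as they do to each other was not counted. By the same measure over 8263 other genes with a symbol and a mean of at least 5 FPKM, SPINT2 was nearest to TESC, which encodes the calcium-binding protein tescalcin (0.15), and to the antisense RNA MINCR (0.23), whose reads may be shared with an overlapping gene since the strand setting is not given. TESC was at 276 and 220 FPKM in TIF1γ, at 181, 221 and 199 FPKM in Vector, at 40.7 and 64.8 FPKM in sh-TAF15, and at 17.9 FPKM in sh-NC. ELF3 was nearest to CGREF1, which encodes a secreted EF-hand protein (0.14), and to DMTN, which encodes the actin-bundling protein dematin (0.17). EPCAM was nearest to 2 processed pseudogenes, RPS7P10 (0.22) and TMSB4XP8 (0.24), whose values are uncertain because they may share reads with their parent genes. All 4 neighbours of SPINT2 and ELF3 were low in the 3 sh libraries, which follows from their choice by likeness over these same libraries.

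**Figure D3:**
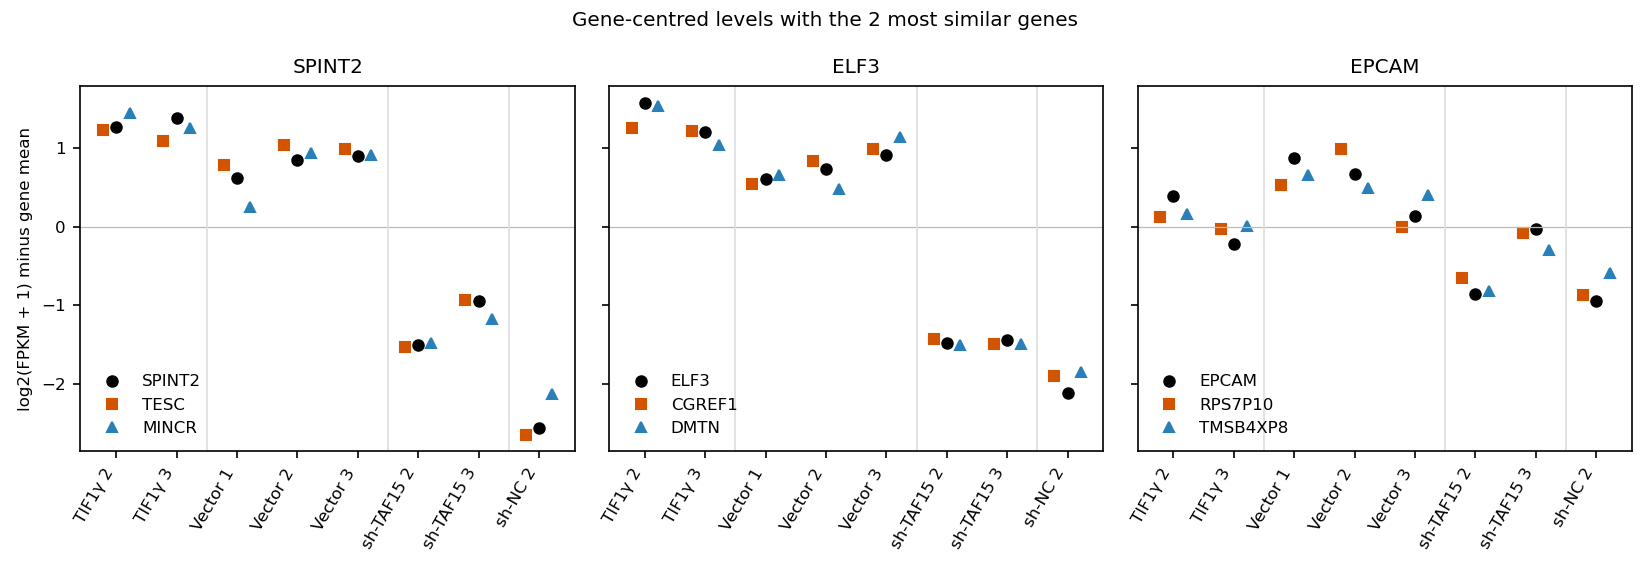
Gene-centred log2(FPKM + 1) (vertical axis) in each of 8 libraries (horizontal axis, grey lines between groups) of SPINT2, ELF3 and EPCAM (black circles) with the 2 most similar genes of each (squares and triangles). SPINT2, ELF3 and their neighbours lie above their means in the 5 TIF1γ and Vector libraries and below them in the 3 sh libraries. The neighbours were chosen by likeness over these same libraries.

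Genes that work with these proteins were described in 6 lists. In TIF1γ against Vector, limma called 0 members of any list, and 2 of 9 tested matriptase network genes, 2 of 11 relatives of the transcription factors, 4 of 12 splicing regulators, 1 of 13 recycling endosome genes, 11 of 22 junction genes and 0 of 7 repressors of the epithelial state had an unadjusted p under 0.05. The share over all genes was 19.9%. The medians of the log2 fold changes were 0.41, 0.14, −0.41, −0.08, 0.03 and 0.02 in this order, beside 0.02 over all genes. The claudin CLDN7, a partner of EpCAM, was at 6.54 and 6.64 FPKM in TIF1γ, against 2.10, 2.95 and 2.46 FPKM in Vector (log2 fold change 1.07, limma adjusted p = 0.2). MET, the receptor of the growth factor HGF, which matriptase activates, had −1.09. The ETS factor SPDEF had 1.14 and the forkhead factor FOXA2 0.54. The splicing regulators PTBP2 and MBNL1 had −1.25 and −1.10, the polarity gene LLGL2 0.72 and the tight junction gene TJP1 −0.92. RAB11B had 0.58, ITGB1 −0.85, ZEB1 −0.41 and TCF4 −0.27. All these list values keep the trend on transcript GC content (Spearman rho 0.788). Of the genes just named, those higher in TIF1γ had 58.2% to 64.6% GC and those lower 34.7% to 44.8%. The part of GC content in the list values was not tested.

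In sh-TAF15 against sh-NC, limma again called 0 members, and 1, 0, 1, 1, 3 and 2 members of the lists in the same order had an unadjusted p under 0.05. Over all genes 5.62% did. The list values here keep the GC trend too (Spearman rho 0.434). The medians were −0.30, −0.15, −0.30, 0.02, 0.08 and −0.46, beside −0.0031 over all genes. LLGL2 had a log2 fold change of 1.65 (SE 0.34, limma adjusted p = 0.126) and CDH1, which encodes E-cadherin, of 1.92 (SE 0.46, limma adjusted p = 0.23). The chloride channel protein CLIC3, a partner of RAB25 in recycling, was at 3.54 and 7.64 FPKM in sh-TAF15, against 0.292 FPKM in sh-NC (log2 fold change 2.18, limma adjusted p = 0.139). The urokinase gene PLAU had −0.90, the protease inhibitor SERPINA1 −0.82, RAB11FIP1 −0.81, UBP1 −0.73, FOXA2 0.45, TCF4 −0.87, PTBP2 −0.85 and MBNL2 −0.89. SNAI2 was at 2.15 and 3.23 FPKM in sh-TAF15, against 5.23 FPKM in sh-NC (log2 fold change −0.81, limma adjusted p = 0.849).

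In sh-NC against Vector, limma called 8 of 22 junction genes lower and 0 higher, where 7.21% of all genes were called lower and 3.78% higher. Their median log2 fold change was −0.51 beside 0.01 over all genes. The comparison rests on 1 sh-NC library, and its list values keep the GC trend (Spearman rho −0.483). JUP, which encodes plakoglobin, fell to 4.69 FPKM in sh-NC, against 82.4 ± 33.0 FPKM in Vector (SD, n = 3), and the ZO-3 gene TJP3 fell to 0.272 FPKM in sh-NC, against 13.8 ± 3.37 FPKM in Vector (SD, n = 3). CRB3, LLGL2, CDH1, CGN and PKP3 fell too, and so did CLDN3, which passed the filter only through TIF1γ and Vector and so had to be lower. CLDN4 and MARVELD2 passed in the same way and DSC2 only through sh libraries. These were not called but enter the median. TJP3 and CGN reached 1 FPKM in only 1 sh library, so they needed the TIF1γ and Vector libraries to pass. In sh-TAF15 against Vector, 6 of the 22 were called lower, where 7.18% of all genes were. They were CLDN3, which by the filter had to be lower here too, TJP3, CGN, CRB3, LLGL2 and JUP. The limit on TJP3 and CGN holds here as well. CDH1 was not among them, with 6.96 and 6.004 FPKM in sh-TAF15, against 4.27 to 10.4 FPKM in Vector (log2 fold change −0.20, limma adjusted p = 0.772). Of the 7 repressors in sh-NC against Vector, SNAI2 and ZEB2 passed the filter only through sh libraries and so had to be higher there. Of the other 5, TCF4 was called higher and TWIST2 lower. TCF4 and ZEB1 reached 1 FPKM in 3 sh libraries but in only 1 other, so they needed the sh libraries to pass. SNAI2 was at 5.23 FPKM in sh-NC, against 0 to 0.104 FPKM in Vector, and ZEB2 at 1.67 FPKM in sh-NC, against 0.106 to 0.167 FPKM in Vector. ZEB1 was at 3.54 FPKM in sh-NC, against 0.797 to 1.02 FPKM in Vector, and SNAI1 at 3.92 FPKM in sh-NC, against 1.24 to 2.18 FPKM in Vector. Neither ZEB1 nor SNAI1 was called. TWIST2, called lower, was at 6.25 FPKM in sh-NC, against 11.6 to 16.2 FPKM in Vector. The factor list had FOXA1, FOXA2 and SPDEF lower and UBP1 higher, and SPDEF passed the filter only through TIF1γ and Vector. In the matriptase network F2RL1, which encodes the receptor PAR2, was higher and CLDN7 lower, SRSF1 was the splicing regulator called higher, and RAB11FIP4, which also passed the filter only through TIF1γ and Vector, the recycling gene called lower. Genes named here and not among those listed by level were chosen because they were called.

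**Figure D4:**
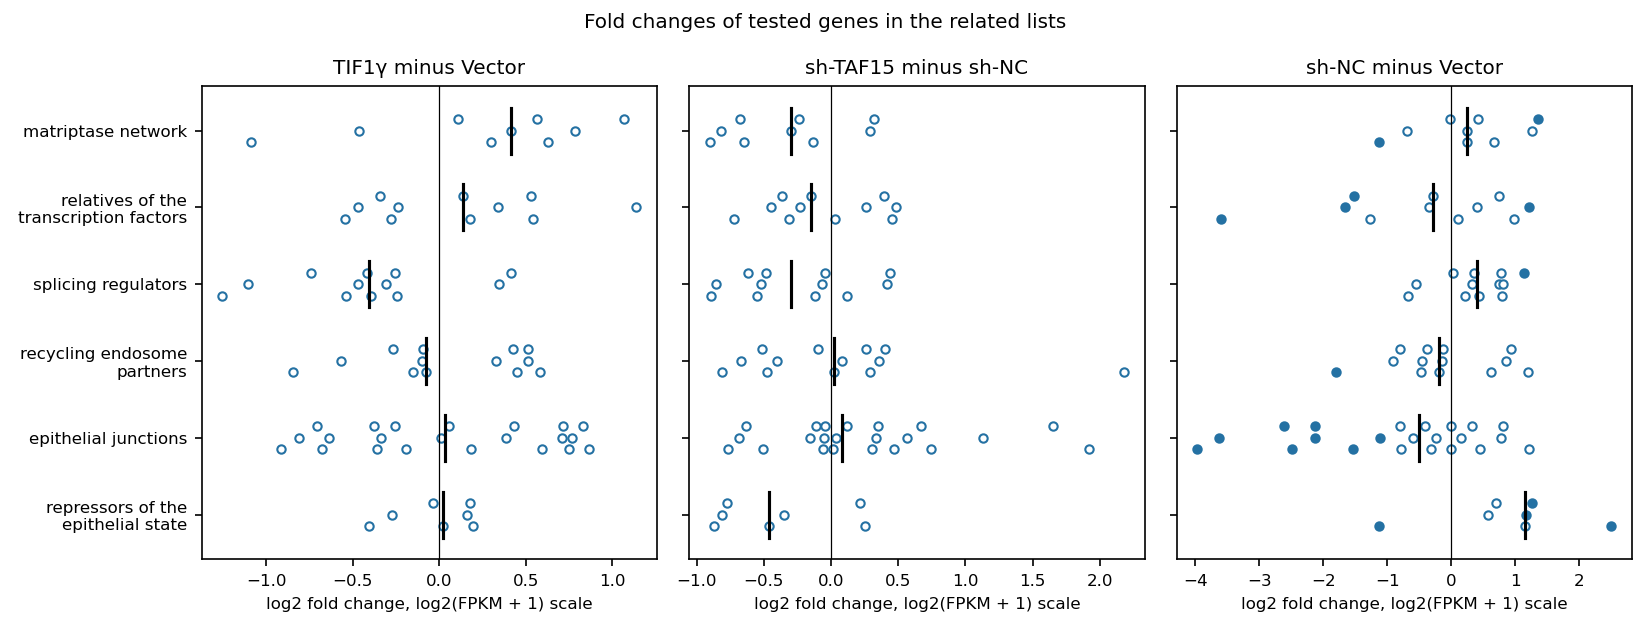
Log2 fold changes on the log2(FPKM + 1) scale (horizontal axis, its own range in each panel) of tested genes in 6 related lists (rows) for 3 comparisons (panels); each circle is a gene, filled where limma's adjusted p is under 0.05, and each black bar is the list's median. No gene is called in TIF1γ minus Vector or sh-TAF15 minus sh-NC, while in sh-NC minus Vector 8 of 22 junction genes are called lower. Of the 3 repressors called higher, SNAI2 and ZEB2 passed the filter only through sh libraries, and TCF4 needed the sh libraries to pass. Of the junction genes called lower, CLDN3 passed it only through TIF1γ and Vector libraries, and TJP3 and CGN needed those libraries to pass.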

How the data were processed

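RNA was sequenced from 4 A549 lines, and 8 of 12 labelled samples have a file. Per the submitters' processing notes, cutadapt 1.9.1, HISAT2 2.0.1 and HTSeq 0.6.1 were used with GRCh37. The labels do not name the unit of the deposited values or how the authors computed them, and they were taken to be FPKM. A read count is not part of them, so depth is known only between libraries.

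Of 57879 identifiers, 51983 were matched to a symbol. The 10 genes, the 6 lists and the tests were chosen with earlier results of these data known. Genes at 1 FPKM or more in at least 2 libraries were tested, except 19 with a 0 beside 100 FPKM or more. Libraries were brought to a common scale by a trimmed mean of ratios (30% cut from either end by ratio and 5% by abundance), and 1 was added before the log2. limma 3.58.1 in R 4.3.3 (trend and robust) fitted 4 groups together with 4 residual degrees of freedom, and p was adjusted by Benjamini-Hochberg. The fit was tested on simulated data. Alternatives changed scaling, pseudocount, filter, variance model, libraries, block, and a GC and length trend (splines on GENCODE 29 transcripts).

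Named genes were the 10 genes, fixed genes by level, the 2 genes with the lowest p per list in both main comparisons, and the 2 genes nearest to each expressed gene.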

Additional observations from a re-analysis of the deposited data

How the results depend on the processing

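Of 242 refitted fold changes of SPINT2, ELF3 and EPCAM, 231 kept their direction and their side of the threshold. The TIF1γ effect minus the sh-TAF15 effect of ELF3, −0.01, became 0.0053 with no scaling, −0.25 with the GC and length trend removed and −0.34 with a replicate block as well. With single libraries left out it lay between −0.22 (TIF1γ replicate 2) and 0.17 (TIF1γ replicate 3). Without scaling, the median of all genes moved to 0.16 in sh-NC and 0.20 in sh-TAF15 against Vector, and the calls over all genes split into 899 higher and 782 lower in sh-NC (526 and 1003 with scaling) and into 1182 and 738 in sh-TAF15 (656 and 999). The cause was not tested in any of these cases.

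With 1 library left out, the count of the 3 genes called stayed at 0 for TIF1γ, sh-TAF15 against sh-NC and the difference of both, was 2 to 3 for sh-NC against Vector and stayed at 2 for sh-TAF15 against Vector. With only the groups compared in the fit, 1 gene, SPINT2, was called in sh-TAF15 against sh-NC. With no filter, OVOL1 was called higher in sh-NC than in Vector, on 0.192 FPKM in 1 library (log2 fold change 0.23, limma adjusted p = 0.0306), and the other 5 genes that had failed it and had a value above 0 were not called in any comparison.

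Over all genes, TIF1γ against Vector gave 3 calls, which became 5 with a pseudocount of 0.1, 0 with no filter and 0 with the GC and length trend removed. Leaving out single libraries gave 1 call for TIF1γ replicate 2, 12 for TIF1γ replicate 3, and 7, 21 and 297 for Vector replicates 1, 2 and 3. sh-TAF15 against sh-NC gave 8 calls, which became 21, 188 and 2 under the same settings and 229 with the sh libraries alone. Leaving out single libraries gave 0 calls for each sh-TAF15 library, 4 for each TIF1γ library, and 17, 52 and 4 for Vector replicates 1, 2 and 3. The difference of both gave 6 calls, which became 103 with no filter and 2 with the trend removed, and was 1 without each sh-TAF15 library, 3 without TIF1γ replicate 2 and 18 without Vector replicate 2. sh-NC against Vector gave 1529, became 1129 with no filter and ran from 1215 to 1744 with single libraries left out. sh-TAF15 against Vector gave 1655, which became 1074 with no filter, and with single libraries left out ran from 681 (sh-TAF15 replicate 2; 878 for replicate 3) to 1789.

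A replicate block gave 44, 52, 30, 1000 and 1334 calls over all genes in the 5 comparisons in this order, and a block with the trend removed gave 0, 0, 0, 554 and 1066. Same-numbered libraries of TIF1γ and Vector had deviations from their group means that correlated at 0.17 and 0.12. Those of Vector and sh-TAF15 correlated at −0.37 and −0.24, and those of TIF1γ and sh-TAF15 at −0.24. In a group of 2 libraries the deviations mirror each other, so these values cannot decide whether the numbers pair the samples. The main fit did not pair them. Depth in reads is unknown, so no counting interval can be given for the 7 genes near 0, which the main test did not cover.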
